A study of Mus musculus with 5 samples.

Results

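Mature dendritic cells that carry Ccr7 and Fscn1 mRNA were examined in subcutaneous Renca tumours, which grow from a mouse renal cortical adenocarcinoma line, in wild-type Balb/c mice. A barcode counted as a mature dendritic cell when it held at least 2 UMIs (unique molecular identifiers, each 1 captured RNA molecule) of Fscn1, at least 3 of Ccr7, Ccl22, Il4i1 and Cacnb3 together, at most 3 of C1qa, C1qb and C1qc, at most 1 of Cd3e, Cd3d and Cd3g, and at most 2 of Krt8 and Krt18. The cell filter asked for 500 or more UMIs, 300 or more detected genes and mitochondrial UMIs of no more than 10%; 52408 barcodes passed it and 587 of them met this rule. The study compared 5 groups with 1 droplet 5′ RNA library each: PBS (labelled untreated, 75 mature barcodes), PD1plusCTLA4 (anti-PD-1 clone RMP1-14 with anti-CTLA-4 clone 9H10, 136 barcodes), PD1plusCD40 (anti-PD-1 with the CD40 agonist antibody FGK4.5, 161 barcodes), CD40plusCTLA4 (the agonist with anti-CTLA-4, 175 barcodes) and Triplet (all of these antibodies, 40 barcodes). Treatment began on day 10 with 200 µg of each antibody, was given in 2 doses, and tumours were taken 24 h after the last dose. Each library pooled cells of 3 mice, and CD45+CD3+, CD45+CD3- and CD45-CD3- cells were sorted and mixed in fixed proportions, so the share of mature dendritic cells among all barcodes (0.845% to 1.70%) does not give their share in the tumour. With 1 library a group no difference between treatments could be tested, and values between libraries are levels in CPM, a gene's UMIs scaled to the summed UMIs of the mature barcodes, with 95% intervals that cover counting error only.

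Dendritic cells take up antigen in tissue and present its peptides on MHC molecules to T cells. On maturation they take up less, put co-stimulatory ligands on the surface, and express the chemokine receptor Ccr7, which guides them along Ccl19 and Ccl21 to the draining lymph node. Fascin (Fscn1) bundles actin in the dendrites of these cells, and Ccl22 attracts T cells with the receptor Ccr4, regulatory T cells among them. CD40, a receptor of the TNF receptor family that T cells engage through CD40 ligand, drives this maturation through both branches of NF-kB signalling. In tumours, mature cells of this kind carry regulatory ligands such as PD-L1 (Cd274) beside the co-stimulatory ones.

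Fscn1, Ccr7 and Ccl22 chose the barcodes, so their presence was fixed by the rule and only their levels are described. Fscn1 stood at 4681 CPM in PBS, 1623 in PD1plusCTLA4, 1682 in PD1plusCD40, 1769 in CD40plusCTLA4 and 1429 in Triplet, and Ccr7 at 4542 CPM in PBS, 1408 in PD1plusCTLA4, 1219 in PD1plusCD40, 917 in CD40plusCTLA4 and 1058 in Triplet. Ccl22 showed another order, with 2202 CPM in PBS, 1675 in PD1plusCTLA4, 4446 in PD1plusCD40, 4439 in CD40plusCTLA4 and 2984 in Triplet. Of the genes the rule did not use, Cd40 was present in every library (186 to 510.0 CPM). Flt3, the cytokine receptor of dendritic cells, was at 113 CPM in PBS, 79.7 in PD1plusCTLA4, 61.4 in PD1plusCD40, 55.9 in CD40plusCTLA4 and 64.3 in Triplet, and Zbtb46, a transcription factor of conventional dendritic cells, at 58.3 CPM in PBS, 88.5 in PD1plusCTLA4, 65.6 in PD1plusCD40, 71.7 in CD40plusCTLA4 and 69.1 in Triplet. Flt3 and Zbtb46 belong to a list of 11 pan dendritic genes. All 7 measured genes of that list were below PD1plusCTLA4 in PD1plusCD40 and in CD40plusCTLA4, beside 3706 of 7100 and 3636 of 7305 genes. In Triplet 5 of 7 were below it, beside 2883 of 5868. The 12 listed T cell markers, none of them in the rule, summed to 7.89 to 14.1 CPM. The rule limited Cd3e, Cd3d and Cd3g, so the choice of barcodes favoured this low level. NK cell markers summed to 95.5 to 254 CPM, neutrophil markers to 1.33 to 300 CPM and plasmacytoid dendritic cell markers to 62.3 to 205 CPM. The 8 tumour and epithelial markers, S100a6 among them, stood higher. They summed to 1319 CPM in PBS, 1518 in PD1plusCTLA4, 2800 in PD1plusCD40, 3030 in CD40plusCTLA4 and 2556 in Triplet. The median depth was 10242, 7576, 7579, 7971 and 9508 UMIs per mature barcode in PBS, PD1plusCTLA4, PD1plusCD40, CD40plusCTLA4 and Triplet. No mature barcode carried the same cell barcode as a mature barcode of another library, and at most 2 per pair of libraries matched some other cell's barcode.

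Members of 2 kinds stood apart, and both came mostly from the PD1plusCD40 and CD40plusCTLA4 libraries. Barcodes under 2500 UMIs numbered 75 (4 in PBS, 5 in PD1plusCTLA4, 25 in PD1plusCD40, 41 in CD40plusCTLA4 and none in Triplet), with a median of 1421 UMIs, and the 512 deeper ones held 97.8% of the UMIs. In the shallow barcodes of PD1plusCD40 and CD40plusCTLA4, Fscn1 was at 1715 and 1673 CPM, but Lyz2 (lysozyme, abundant in macrophages) was at 6297 and 7017 CPM. In the CD40plusCTLA4 droplets of 10 to 100 UMIs, which hold mainly free RNA, Lyz2 was at 10624 CPM, Fscn1 at 27.6 and Ccr7 at 8.04. Lyz2 also divided the deep barcodes: 83 mature barcodes lay above 3000 CPM of Lyz2, a limit set after its values were seen, of which 36 had at least 2500 UMIs, and 20 barcodes lay between 2000 and 4000 CPM. They numbered 0 in PBS, 1 in PD1plusCTLA4, 32 in PD1plusCD40, 48 in CD40plusCTLA4 and 2 in Triplet, and held 11.8% of the UMIs.

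**Figure D1:**
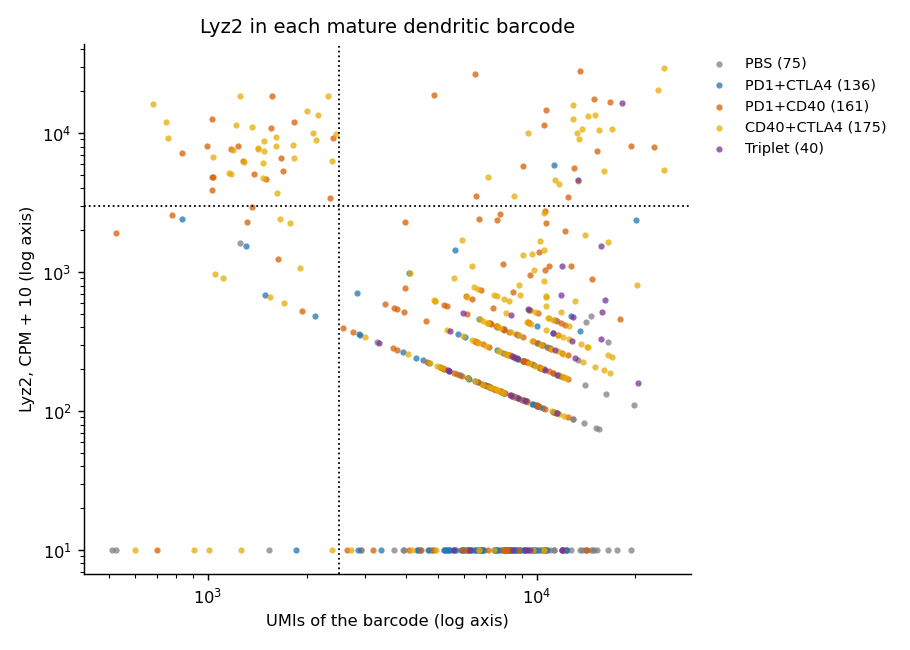
Lyz2 level (CPM + 10, log axis) against UMIs (log axis) of each of the 587 mature barcodes, coloured by library, with dotted lines at 2500 UMIs and 3000 CPM. Barcodes above 3000 CPM lie on both sides of 2500 UMIs and come mainly from PD1plusCD40 (32) and CD40plusCTLA4 (48).

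The Lyz2-high barcodes had less of the maturation mRNAs and more of the macrophage and MHC class II ones. In PD1plusCD40, Ccr7 was at 277 CPM in Lyz2-high and 1409 in the other members, Ccl22 at 1941 and 4951, Csf1r (the macrophage colony-stimulating factor receptor) at 144 and 4.98, and Cd74 (the MHC class II invariant chain) at 10490.4 and 4187. In CD40plusCTLA4 the same order held, with Ccr7 at 239 and 1122 CPM and Csf1r at 127 and 8.40. Over all members the 12 macrophage markers summed to 209 CPM in PBS, 364 in PD1plusCTLA4, 2661 in PD1plusCD40, 3522 in CD40plusCTLA4 and 1277 in Triplet. Without the Lyz2-high members the sums were 209, 301, 597, 590 and 422, with Csf1r at 0 in PBS and Adgre1 at 0 in PD1plusCTLA4. Lyz2 is 1 of these 12 markers and alone was at 2284 CPM in PD1plusCD40, 2972 in CD40plusCTLA4 and 1150 in Triplet over all members. Leaving out barcodes chosen on Lyz2 therefore had to lower the sums, and the drop does not bear on the other markers. Of the named results between libraries, 52 moved and 5 turned in sign when these barcodes were left out, and 232 stayed the same. Some values between libraries are therefore given with and without them. Levels of Ccr7, Ccl22 and Ccl17 are compared between libraries over all members only.

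At the edges of the rule, 72 members had exactly 2 UMIs of Fscn1, with 5957 CPM of Lyz2 and 2100.5 of Ccl17 over all libraries, and 128 barcodes that met every other limit had 1, with 5188 and 2245. At the C1q limit, 33 members had 3 UMIs and 2423 CPM of Lyz2, and 34 barcodes just outside had 4 and 6441 CPM. Another 250 barcodes failed on C1q alone, at 12189 CPM of Lyz2, and 37 failed on Krt8 and Krt18 alone, 28 of them in PBS.

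Over all barcodes of the filter, mature cells made up nearly all dendritic barcodes in PD1plusCD40 and CD40plusCTLA4, and a minority in the other libraries. When barcodes were thinned to 2500 UMIs, the PD1plusCTLA4 share was 52.1% (112 of 215). Dendritic barcodes here are the mature ones, those with at least 2 UMIs of Xcr1 and Clec9a (cDC1 rule, the cross-presenting type) and those with at least 2 UMIs of Cd209a and none of Xcr1 or Clec9a (Cd209a rule; this lectin is carried by type 2 and monocyte-derived dendritic cells). The mature share was 31.6% (exact interval 25.8 to 38.0, 75 of 237) in PBS, 36.6% (31.7 to 41.7, 136 of 372) in PD1plusCTLA4, 98.8% (95.6 to 99.9, 161 of 163) in PD1plusCD40, 94.6% (90.3 to 97.4, 175 of 185) in CD40plusCTLA4 and 21.1% (15.5 to 27.5, 40 of 190) in Triplet. These intervals cover counting error within 1 library a group and not the spread between mice, and no difference was tested. The intervals of PD1plusCD40 and CD40plusCTLA4 overlap each other and none of the rest. Triplet, which also received the CD40 agonist, lay at the low end. The counts behind these shares were 25, 34, 0, 1 and 6 cDC1-rule barcodes and 137, 202, 2, 9 and 144 Cd209a-rule barcodes in PBS, PD1plusCTLA4, PD1plusCD40, CD40plusCTLA4 and Triplet.

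**Figure D2:**
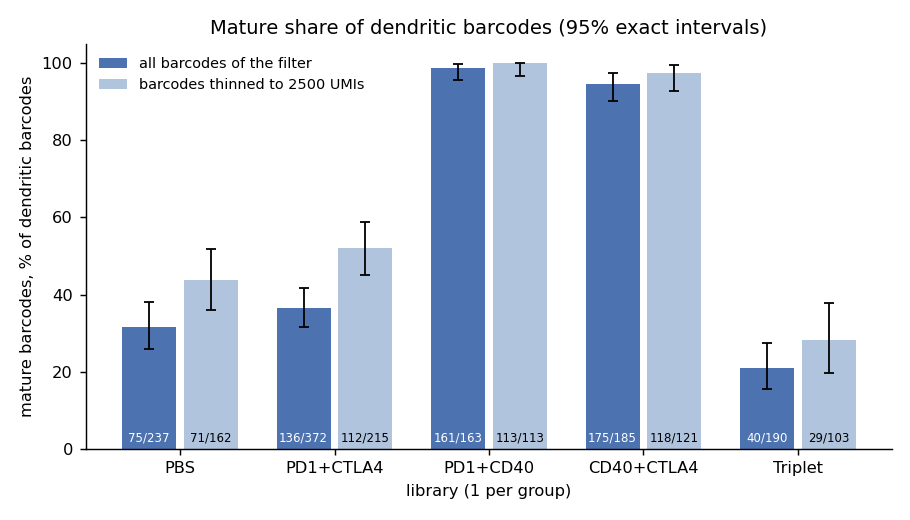
Share of mature barcodes among dendritic barcodes (percent) in each of the 5 libraries, for all barcodes and after thinning each barcode to 2500 UMIs; bars carry exact 95% binomial intervals and the counts. PD1plusCD40 and CD40plusCTLA4 are above 94% in both versions, and Triplet is the lowest in both.

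Over all barcodes that passed the filter, with no cell rule, Xcr1 and Cd209a were lowest in PD1plusCD40 and CD40plusCTLA4, whereas Flt3 and Zbtb46 did not follow that order. Xcr1, a chemokine receptor of cDC1, was at 1.67, 3.43 and 0.912 CPM in the PBS, PD1plusCTLA4 and Triplet libraries and at 0.192 and 0.194 in PD1plusCD40 and CD40plusCTLA4. Cd209a, a lectin, was at 35.2, 19.6 and 29.3 against 0.302 and 0.686 CPM. Flt3 was at 3.58, 5.48 and 1.45 against 2.17 and 2.29 CPM, lowest in Triplet. Zbtb46 was at 5.11, 9.31 and 12.7 against 9.84 and 8.36 CPM, lowest in PBS. Clec10a, a lectin that macrophages also express, was at 21.9, 14.2 and 19.4 against 11.9 and 9.84 CPM, a smaller difference than for Xcr1 or Cd209a. Ccr7, which T cells also express, was at 85.8, 26.4, 33.4, 24.2 and 12.4 CPM in PBS, PD1plusCTLA4, PD1plusCD40, CD40plusCTLA4 and Triplet. When barcodes were thinned to 2500 UMIs the mature share was 43.8% (71 of 162), 52.1% (112 of 215), 100% (113 of 113), 97.5% (118 of 121) and 28.2% (29 of 103) in that order, with 4, 5, 25, 41 and 0 shallow mature barcodes left out. Fewer cells of a type and less of its marker RNA per cell cannot be told apart by these counts.

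Mature barcodes were set against the other dendritic barcodes of the same libraries, in PBS, PD1plusCTLA4 and Triplet only. There they had more mRNA of NF-kB, maturation, migration and immunoregulatory genes and less of MHC class II, antigen uptake and cell cycle genes. UMIs were summed per library and cell kind and tested with edgeR's quasi-likelihood test with the library as a block (Benjamini-Hochberg adjusted p under 0.05). For cDC1-rule barcodes 2 libraries (PBS, PD1plusCTLA4) and for Cd209a-rule barcodes 3 (with Triplet) had at least 10 barcodes of both kinds. The 161 mature barcodes of PD1plusCD40 and the 175 of CD40plusCTLA4 are therefore in neither fit. Some genes called below, such as Aldh1a2, Map3k14 and Dkk2, were far lower in those libraries, while others, such as Ccl5, were not. Of 5859 genes, 1142 were higher (19.5%) and 986 lower (16.8%) than in cDC1-rule barcodes, and of 8432 genes 1698 were higher (20.1%) and 1729 lower (20.5%) than in Cd209a-rule barcodes. Of 5783 genes tested in both, 958 were higher in both (16.6%) and 680 lower in both (11.8%). The members were picked on Fscn1 and 4 other mRNAs, so genes that vary with those had to differ; the calls give the size of a difference and its repeat across libraries and do not bear on the label. Genes of the rules were not tested, and a called gene below is higher or lower in both comparisons. Log2 fold changes are given first against cDC1-rule and then against Cd209a-rule barcodes. DESeq2 on the same counts called 928 genes against cDC1-rule barcodes, of 2128 by edgeR.

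**Figure D3:**
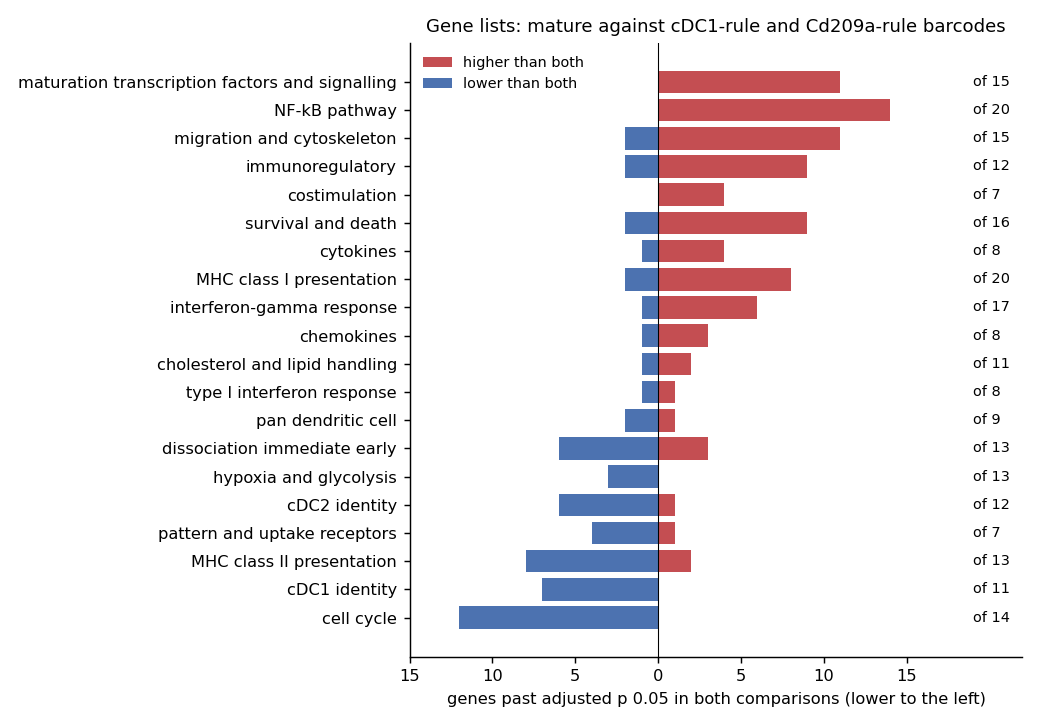
Number of genes of each list that were higher (right) or lower (left) in mature barcodes than in both cDC1-rule and Cd209a-rule barcodes at adjusted p under 0.05, with the number tested in both at the right. The NF-kB list (14 of 20) and the maturation list (11 of 15) have calls in the higher direction only, and the cell cycle list (12 of 14) in the lower direction only.

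Among co-stimulatory genes 4 of 7 were higher in both comparisons and none was lower. Cd40 was at 321 ± 126 CPM in mature barcodes against 20.7 ± 1.99 (SD, n = 3 libraries) in Cd209a-rule barcodes, a log2 fold of 3.00 (SE 0.29, adjusted p = 1.48e-05) against cDC1-rule barcodes and 4.27 (SE 0.26, adjusted p = 3.09e-08) against Cd209a-rule barcodes. Cd80, the ligand of CD28 and CTLA-4, differed by 3.03 and 2.48, Cd83, which stabilises MHC class II on mature cells, by 2.52 and 3.76, and Icam1, the adhesion ligand of LFA-1, by 1.08 and 2.18. Cd86, the other CD28 ligand, was called only against Cd209a-rule barcodes (0.68 and 1.36). Without the library block Cd83 and Icam1 lost the call against cDC1-rule barcodes, and Icam1 lost it in DESeq2.

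Of 12 immunoregulatory genes 9 were higher in both and 2 lower. Cd274, which encodes PD-L1, differed by 3.07 and 3.82 and Pdcd1lg2 (PD-L2) by 2.46 and 2.57. Cd200, which restrains myeloid cells through its receptor, differed by 3.75 and 5.53, the death receptor Fas by 4.73 and 4.77 and Socs2, a suppressor of cytokine signalling, by 6.61 and 4.81. Tnfrsf9 (4-1BB), a co-stimulatory receptor best known on T cells, was at 348 ± 410.3 CPM in mature barcodes against 7.83 ± 7.90 (SD, n = 3 libraries) in Cd209a-rule barcodes, a log2 fold of 5.73, and had 1 UMI in cDC1-rule barcodes. Aldh1a2, the enzyme that makes retinoic acid, had no UMI in cDC1-rule barcodes and was at least 56.7-fold higher, and Il2ra at least 21.4-fold, against a floor of 3 UMIs over the group; DESeq2 called neither against cDC1-rule barcodes. Vsir (the checkpoint VISTA, -2.85 and -2.47) and Tgfb1 (-1.24 and -1.31) were lower.

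Chemokines and cytokines split by gene. Ccl5, which attracts T cells, was at 11816 ± 1029 CPM in mature barcodes against 71.9 ± 73.1 (SD, n = 2 libraries) in cDC1-rule barcodes, a log2 fold of 7.73 (SE 0.42, adjusted p = 8.07e-07) against cDC1-rule barcodes and 8.77 (SE 0.36, adjusted p = 2.17e-09) against Cd209a-rule barcodes. Ccl17, a Ccr4 ligand like Ccl22, differed by 3.96 and 1.68 and Cxcl16, the ligand of Cxcr6 on tissue T cells, by 1.71 and 2.85, while Ccl6 was lower (-1.14 and -2.55). These were 3 higher and 1 lower of 8 chemokines. Of 8 cytokine genes 4 were higher and Il18 was lower: Il15 (2.13 and 2.77) and its presenting receptor Il15ra (3.02 and 4.54) sustain CD8 T and NK cells, Il12b (2.04 against cDC1-rule barcodes) is a subunit of IL-12 and IL-23, and Ebi3 (1.06 and 1.42) a subunit of IL-27. Il12b had 1 UMI in all Cd209a-rule barcodes of the fit, and no fold is given there.

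The NF-kB list had 14 of 20 genes higher in both comparisons and none lower. Relb, the partner of p52 in the alternative branch, differed by 4.60 (SE 0.32, adjusted p = 2.17e-06) against cDC1-rule barcodes and 3.52 (SE 0.25, adjusted p = 1.22e-07) against Cd209a-rule barcodes. Map3k14, the kinase NIK that starts this branch, differed by 4.43 and 3.77, and Birc2 and Traf3, which hold NIK in check, by 4.63 and 4.07 and 1.95 and 2.09. Nfkb2, the precursor of p52, differed by 3.05 and 2.75, Rel by 3.54 and 2.70 and Traf1, a signalling adaptor and NF-kB target, by 3.07 and 3.52. The inhibitors Nfkbia (2.67 and 2.27), Nfkbib (2.89 and 2.84) and Tnfaip3 (2.03 and 1.37) were higher as well, and Chuk, which encodes IKK-alpha, was not called (-0.63 and 0.05). Nfkb2, Nfkbia, Rel, Traf3 and Tnfaip3 are named here after their values were seen.

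Promoters of 2 genes of the list, Nfkb2 and Nfkbia, are shown because both hold the NF-kB consensus motif, searched on both strands from 250 bases before to 50 after each RefSeq start (GRCm38.p6). Of the 18 genes of the list with a window, 9 held it (Bcl3, Nfkb2, Nfkbia, Nfkbid, Nfkbie, Rel, Tnfaip3, Tnip1 and Traf3), beside 5.14% of all 27025 genes. It was present in 11.4% of 757 genes higher in mature barcodes and 6.14% of 521 lower in both comparisons, beside 6.86% of 4621 tested in both; no test was made, and genes with several starts had several windows. The 250 bases before the start follow 5′ to 3′ on the gene's strand with the motif in capitals, for Nfkb2 at chr19:46304487-46304736 (plus strand, the start with most matches) and for Nfkbia at chr12:55492648-55492897 (minus strand). A match describes letters and is not a binding site.
Nfkb2: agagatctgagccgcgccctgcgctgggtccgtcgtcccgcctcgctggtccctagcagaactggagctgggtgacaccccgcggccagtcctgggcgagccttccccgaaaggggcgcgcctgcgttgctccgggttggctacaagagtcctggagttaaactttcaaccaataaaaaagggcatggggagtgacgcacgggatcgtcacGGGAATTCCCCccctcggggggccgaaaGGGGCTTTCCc
Nfkbia: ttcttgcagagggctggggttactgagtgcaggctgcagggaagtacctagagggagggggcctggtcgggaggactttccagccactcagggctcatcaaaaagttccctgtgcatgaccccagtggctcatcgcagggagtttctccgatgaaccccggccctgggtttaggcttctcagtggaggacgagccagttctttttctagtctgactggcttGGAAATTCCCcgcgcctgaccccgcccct
The first match begins 39 bases before the start in Nfkb2, which holds 3 matches, some overlapping, and the single match of Nfkbia begins 29 bases before its start. The alternative-branch genes Map3k14 and Birc2 had a window without the motif.

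Transcription factors and cytokine signalling genes of maturation were higher in 11 of 15 and lower in none. Nr4a3, a nuclear receptor of migratory dendritic cells, differed by 4.29 (SE 0.36, adjusted p = 6.19e-06) against cDC1-rule barcodes and 3.97 (SE 0.36, adjusted p = 1.23e-06) against Cd209a-rule barcodes. Stat4 had no UMI in cDC1-rule barcodes and was at least 138-fold higher; its log2 fold against Cd209a-rule barcodes was 6.19. DESeq2 did not call Stat4 against cDC1-rule barcodes. Etv3 (3.18 and 2.67), Stat3 (3.28 and 2.07) and the IL-21 receptor Il21r (3.06 and 3.71) followed, and Il7r, a subunit of the receptors for IL-7 and TSLP, differed by 3.96 and 2.50.

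Migration and cytoskeleton genes were higher in 11 of 15 and lower in 2. Samsn1, an adaptor protein, differed by 6.81 and 5.19, Tmcc3 by 5.48 and 4.26, Anxa3, an annexin, by 4.90 and 4.68, Marcksl1, which links actin to the membrane, by 3.61 and 3.06 and the chemokine receptor Cxcr4 by 4.01 and 2.09. On the lower side Ccr2, a receptor of inflammatory chemokines, differed by -4.17 and -4.41 and was not called by DESeq2 against cDC1-rule barcodes.

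**Figure D4:**
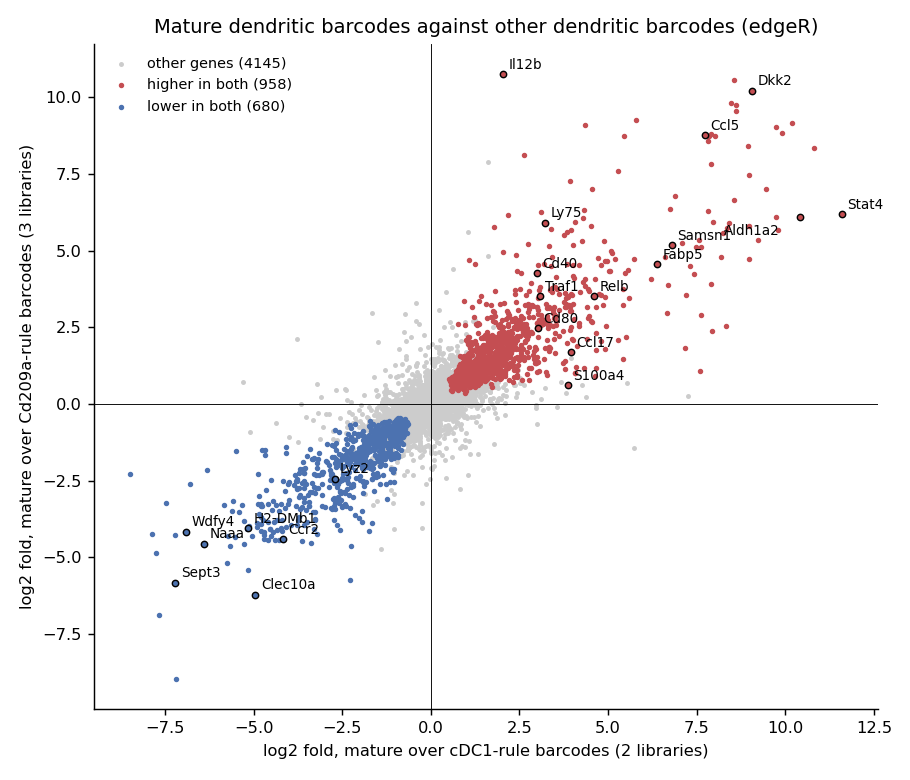
Log2 fold change of mature over cDC1-rule barcodes (horizontal, 2 libraries) and over Cd209a-rule barcodes (vertical, 3 libraries) for each of the 5783 genes tested in both, with the 958 genes higher in both in red and the 680 lower in both in blue. Ccl5, Dkk2, Aldh1a2 and Stat4 lie at the upper right, at fitted values where a gene had no UMI in the other kind, and Wdfy4, Naaa, Sept3 and Clec10a at the lower left.

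For MHC class II presentation 8 of 13 genes were lower in both comparisons and 2 higher. H2-DMb1, a chain of the peptide exchange factor H2-DM, was at 28.0 ± 23.5 CPM in mature barcodes against 519.6 ± 114 (SD, n = 3 libraries) in Cd209a-rule barcodes, a log2 fold of -5.16 (SE 0.29, adjusted p = 8.07e-07) against cDC1-rule barcodes and -4.06 (SE 0.29, adjusted p = 1.38e-07) against Cd209a-rule barcodes. H2-DMa differed by -2.56 and -2.51, Ciita, the master regulator of class II transcription, by -3.25 and -2.90, H2-Ab1 by -2.63 and -1.99 and Cd74 by -0.96 and -0.85. Lgmn (2.59 and 2.40), a lysosomal protease, and Ifi30 (0.58 and 0.63), a lysosomal thiol reductase, were higher. Of 20 class I genes 8 were higher and 2 lower, with B2m, the class I light chain, at 1.51 and 1.92 and the chaperones Calr (-1.59 and -0.93) and Pdia3 (-1.92 and -1.04) on the lower side. H2-Q genes are near-identical to each other and their values are uncertain.

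Identity genes of both other kinds were low in mature barcodes. The other kinds were picked on Xcr1, Clec9a or Cd209a mRNA with members left out. Identity genes that vary with those mRNAs therefore had to be higher in them, and these counts do not bear on the label. Of 11 cDC1 genes 7 were lower in both, among them Naaa (-6.39 and -4.55) and Wdfy4 (-6.90 and -4.16), the latter required for cross-presentation, and none was higher. Of 12 cDC2 genes 6 were lower, among them the lectins Clec10a (a mean of 0.442 CPM against 51.0 in Cd209a-rule barcodes) and Mgl2 (-2.02 and -3.71), and S100a4 was higher (3.87 and 0.62). Of 7 uptake and pattern receptors 4 were lower and Ly75 (the antigen receptor DEC-205) was higher, at 258 ± 75.5 CPM in mature barcodes against 5.46 ± 2.28 (SD, n = 3 libraries) in Cd209a-rule barcodes (3.23 and 5.91). Of 9 pan dendritic genes 1 was higher in both comparisons and 2 lower. Cell cycle genes were lower in 12 of 14 and higher in none, with Mki67 at -4.20 and -4.14 and Top2a at -3.78 and -3.93. Of 16 survival and death genes 9 were higher and 2 lower. The immediate early list, which tissue digestion can raise, had 3 of 13 higher and 6 lower, and the hypoxia and glycolysis list 0 higher and 3 lower of 13.

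The 8 genes farthest above the other dendritic barcodes belonged to none of the lists, whereas 3 of the 8 farthest below were list members (Sept3 and Naaa of the cDC1 list and Ube2c of the cell cycle list). Dkk2, an inhibitor of Wnt signalling, had no UMI in either other kind and was at least 24.5-fold and at least 178-fold higher. Lad1, Slco5a1 and Synpo2, also without a UMI in either kind, were at least 16.0-, 17.8- and 15.9-fold higher than in cDC1-rule and at least 114-, 129- and 125-fold higher than in Cd209a-rule barcodes. Fabp4, a fatty acid carrier, and Sod3, an extracellular superoxide dismutase, were at least 36.3- and 37.7-fold higher than in cDC1-rule barcodes, where neither had a UMI. DESeq2 called none of these 6 against cDC1-rule barcodes. Fabp5, another fatty acid carrier, was at 3352 ± 180.2 CPM in mature barcodes against 49.6 ± 0.656 (SD, n = 2 libraries) in cDC1-rule barcodes (6.37 and 4.57). On the lower side Sept3, a septin, averaged 0.972 CPM against 243 in cDC1-rule barcodes. Of the genes named for their lists, DESeq2 also did not call Vsir, Tgfb1, Ccl6, Il2ra and Il18 against cDC1-rule barcodes, and it did not call Il18 against Cd209a-rule barcodes. Without the library block Il12b, Ccl6, Ccr2, Tgfb1, Mgl2, Il18, Ifi30 and Calr lost the call against cDC1-rule barcodes, and Ifi30, Calr and S100a4 lost it against Cd209a-rule barcodes.

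Across treatments the mature barcodes of the 3 libraries with the CD40 agonist were set against the other 2 by a gap: a gene was counted when its lowest level in PD1plusCD40, CD40plusCTLA4 and Triplet was at least 2 times its highest level in PBS and PD1plusCTLA4, or the reverse. Of 9086 genes with at least 20 UMIs, 166 were higher (1.83%) and 69 lower (0.759%). Of the 166, 78 remained without the Lyz2-high members, and of the 69, 53; with those members left out, 90 of 8657 genes were higher (1.04%) and 66 lower (0.762%). The anti-CD40 libraries received different antibody combinations and are not replicates of one group. The genes described next kept the gap without the Lyz2-high members, and those that no list rule names (Gyg, Sox4, Pkib, Ccnd1, Il12rb2) were chosen after their values were seen.

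On the higher side were 3 of 10 cytokine genes (Il6, Il1rn and Il18bp, which binds IL-18) and 1 of 11 co-stimulatory genes (Cd70). Il6 was at 1.33 CPM in PBS, 4.86 in PD1plusCTLA4, 29.0 in PD1plusCD40, 27.3 in CD40plusCTLA4 and 28.6 in Triplet. Il1rn, the antagonist of the IL-1 receptor, was at 21.2 CPM in PBS, 19.4 in PD1plusCTLA4, 69.7 in PD1plusCD40, 63.1 in CD40plusCTLA4 and 52.4 in Triplet. Cd70, the ligand of CD27 on T cells, was at 11.9 CPM in PBS, 18.5 in PD1plusCTLA4, 68.9 in PD1plusCD40, 88.2 in CD40plusCTLA4 and 42.9 in Triplet. Il6 was close to level across the 3 anti-CD40 libraries, and Cd70 was lowest of them in Triplet. The counts of Il6 were small, with at most 5 UMIs in PBS or PD1plusCTLA4 and with 9 barcodes behind the Triplet level. Ltb (lymphotoxin beta) was at 31.8 CPM in PBS, 41.8 in PD1plusCTLA4, 142 in PD1plusCD40, 215 in CD40plusCTLA4 and 198 in Triplet, and without the Lyz2-high members at 86.7, 95.2 and 149 in the anti-CD40 libraries. Bcl2l1, which encodes the survival protein Bcl-xL, was at 15.9 CPM in PBS, 21.4 in PD1plusCTLA4, 45.6 in PD1plusCD40, 59.5 in CD40plusCTLA4 and 76.2 in Triplet, the only one of 15 survival and death genes with a gap.

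Cell cycle genes showed the gap in 7 of 15, and in 2 of 10 (Mki67 and Cdk1) without the Lyz2-high members. Summed over the 17 listed genes, the level did not follow the gap, with 720 CPM in PBS and 704 in PD1plusCD40. It was 529 in PD1plusCTLA4, 953 in CD40plusCTLA4 and 936 in Triplet. Leaving out the Lyz2-high members gave 581 in PD1plusCD40, 745 in CD40plusCTLA4 and 832 in Triplet, with PBS unchanged at 720. Mki67, which marks cycling cells, was at 2.65 CPM in PBS, 4.86 in PD1plusCTLA4, 39.0 in PD1plusCD40, 35.1 in CD40plusCTLA4 and 23.8 in Triplet. The Triplet level of Mki67 came from 4 barcodes, with 5 UMIs in 1 of them. Ccnd1, cyclin D1, was at 1.33 CPM in PBS, 5.83 in PD1plusCTLA4, 34.9 in PD1plusCD40, 89.7 in CD40plusCTLA4 and 42.9 in Triplet. In cDC1-rule and Cd209a-rule barcodes of the tested libraries Mki67 averaged 90.6 and 196 CPM.

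On the lower side, Aldh1a2 was at 353 CPM in PBS, 171 in PD1plusCTLA4, 3.32 in PD1plusCD40, 1.43 in CD40plusCTLA4 and 57.2 in Triplet. Fabp4 was at 199 CPM in PBS, 129 in PD1plusCTLA4, 1.66 in PD1plusCD40, 5.02 in CD40plusCTLA4 and 57.2 in Triplet. Gyg, glycogenin, which primes glycogen synthesis, was at 1669 CPM in PBS, 922 in PD1plusCTLA4, 198 in PD1plusCD40, 239 in CD40plusCTLA4 and 252 in Triplet. For Aldh1a2 Triplet lay between the other anti-CD40 libraries and the libraries without the agonist. The Triplet level of Fabp4 rested on 24 UMIs in 2 barcodes, 21 of them in 1 barcode. The transcription factor Sox4 was at 106 CPM in PBS, 84.6 in PD1plusCTLA4, 21.6 in PD1plusCD40, 15.1 in CD40plusCTLA4 and 21.4 in Triplet, Pkib, an inhibitor of protein kinase A, at 864 CPM in PBS, 608 in PD1plusCTLA4, 218 in PD1plusCD40, 189 in CD40plusCTLA4 and 126 in Triplet, and Il12rb2, a chain of the IL-12 receptor, at 167 CPM in PBS, 21.4 in PD1plusCTLA4, 7.47 in PD1plusCD40, 8.61 in CD40plusCTLA4 and 4.76 in Triplet. Fabp5 was at 3224 CPM in PBS, 3479 in PD1plusCTLA4, 1515 in PD1plusCD40, 1285 in CD40plusCTLA4 and 1484 in Triplet, and its gap fell under 2-fold without the Lyz2-high members. No gene of the NF-kB (22), MHC class I (20) or chemokine (14) lists showed the gap.

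**Figure D5:**
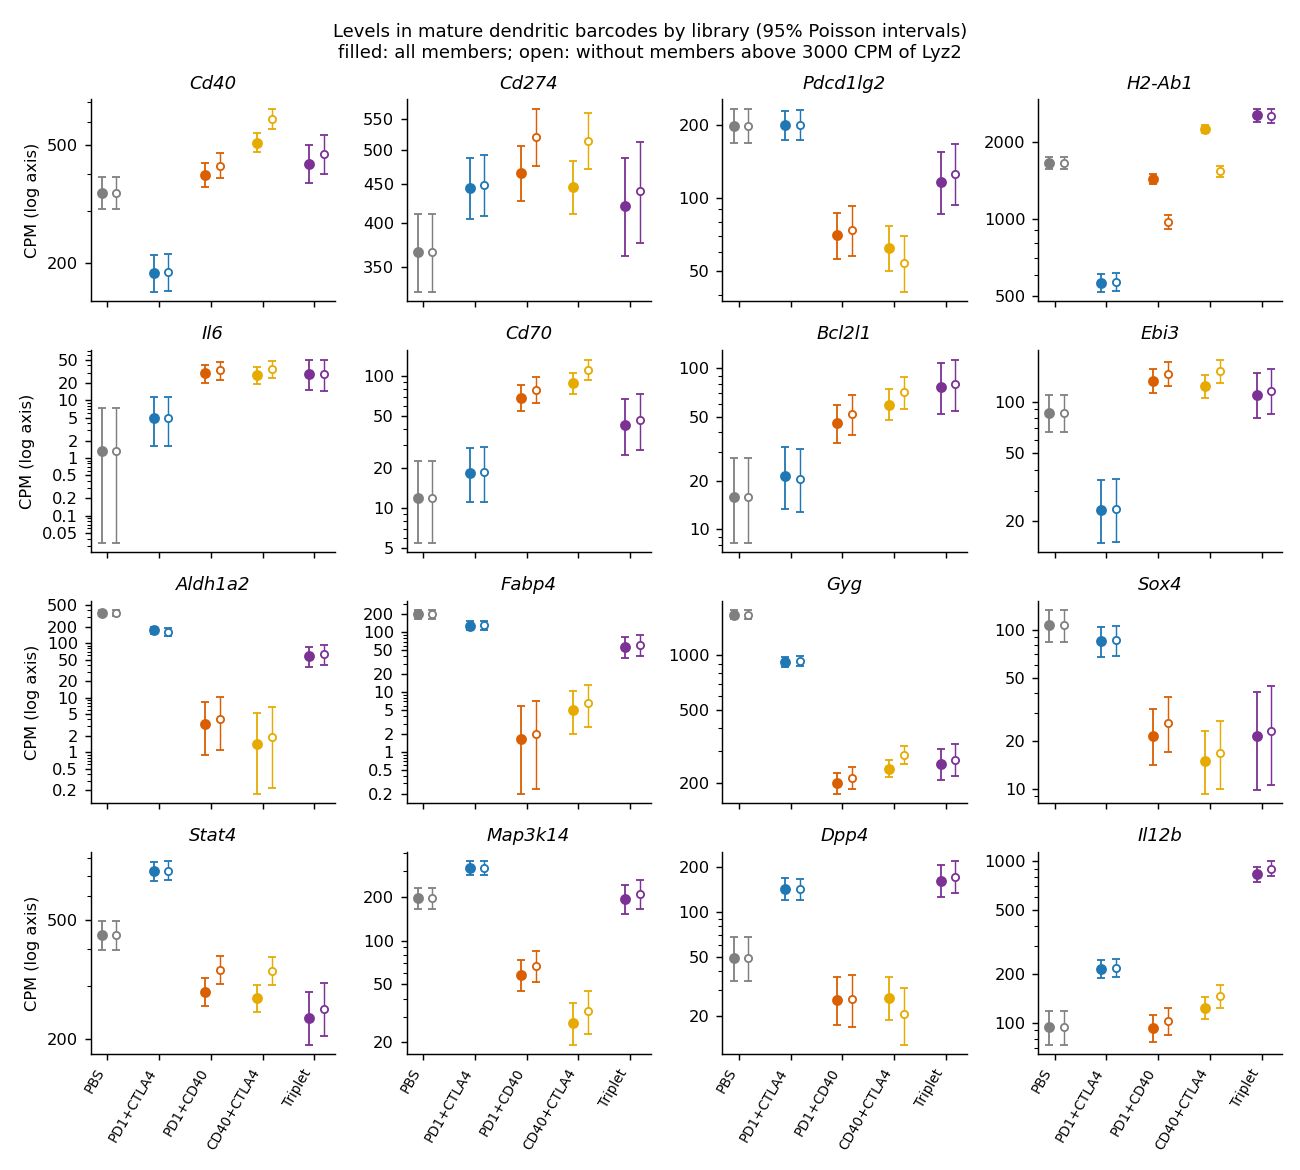
Levels (CPM, log axis) of 16 genes in the mature barcodes of each library with 95% Poisson intervals; filled points are all members and open points are without members above 3000 CPM of Lyz2. Aldh1a2, Fabp4, Gyg and Sox4 are low in all 3 anti-CD40 libraries, and Dpp4, Map3k14 and Il12b differ between Triplet and the other anti-CD40 libraries.

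PD1plusCTLA4 was the reference for each anti-CD40 library, so the 3 comparisons share its mature barcodes. A gene was called when its level differed by at least 2-fold with a ratio interval excluding 1. In Triplet 280 of 5868 genes were higher (4.77%) and 238 lower (4.06%). In PD1plusCD40 389 of 7100 were higher (5.48%) and 452 lower (6.37%), and in CD40plusCTLA4 547 of 7305 were higher (7.49%) and 517 lower (7.08%). Calls in the comparison of PD1plusCTLA4 with PBS were more frequent, with 796 of 6451 genes higher (12.3%) and 719 lower (11.1%).

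The targets of the antibodies and their ligands were read first. Cd40 was at 345 CPM in PBS, 186 in PD1plusCTLA4, 397 in PD1plusCD40, 510.0 in CD40plusCTLA4 and 433 in Triplet; over PD1plusCTLA4 the ratio was 2.33 (interval 1.90 to 2.88) in Triplet, 2.14 (interval 1.80 to 2.54) in PD1plusCD40 and 2.75 (interval 2.34 to 3.24) in CD40plusCTLA4. The PBS level lay between that of PD1plusCTLA4 and those of the anti-CD40 libraries. Cd274 had ratios of 0.947 (interval 0.792 to 1.13), 1.05 (interval 0.923 to 1.19) and 1.00 (interval 0.887 to 1.13), with 1 inside every interval. Pdcd1lg2 was at 199 CPM in PBS, 199 in PD1plusCTLA4, 70.5 in PD1plusCD40, 62.4 in CD40plusCTLA4 and 117 in Triplet. All 3 anti-CD40 libraries were below both others in Pdcd1lg2. Cd86, a ligand of CTLA-4 and CD28, had ratios of 1.11 (interval 0.865 to 1.41), 1.72 (interval 1.46 to 2.03) and 1.73 (interval 1.47 to 2.03) over PD1plusCTLA4, and Cd80 of 1.12 (interval 0.835 to 1.50), 1.34 (interval 1.09 to 1.65) and 1.19 (interval 0.966 to 1.46). Pdcd1 (PD-1) was at 39.8 CPM in PBS, 15.6 in PD1plusCTLA4, 0.830 in PD1plusCD40, 0 in CD40plusCTLA4 and 0 in Triplet, and Ctla4 at 0 to 4.86 CPM.

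MHC class II genes were higher than in PD1plusCTLA4 in 6 of 11 measured genes in Triplet, 4 of 12 in PD1plusCD40 and 6 of 12 in CD40plusCTLA4, with none lower. Without the Lyz2-high members the counts were 6 of 11, 0 of 12 and 3 of 12, with 1 lower in CD40plusCTLA4. H2-Ab1 was at 1650.5 CPM in PBS, 561 in PD1plusCTLA4, 1427 in PD1plusCD40, 2242 in CD40plusCTLA4 and 2534 in Triplet, and without the Lyz2-high members at 968, 1531 and 2524 in the anti-CD40 libraries. The PBS level of H2-Ab1 exceeded those of PD1plusCTLA4 and PD1plusCD40, and that of CD40plusCTLA4 once the Lyz2-high members were left out. Median Cd74 over mature barcodes of at least 2500 UMIs was 6154 CPM in PBS, 2346 in PD1plusCTLA4 and 1869 in PD1plusCD40. It was 3939 in CD40plusCTLA4 and 6559 in Triplet. H2-DMb1 was at 18.6 CPM in PBS, 10.7 in PD1plusCTLA4, 78.0 in PD1plusCD40, 78.2 in CD40plusCTLA4 and 54.8 in Triplet, but at 14.0, 32.7 and 56.7 CPM in the anti-CD40 libraries without them. Of the macrophage markers, 7 of 8 were higher in PD1plusCD40, 7 of 9 in CD40plusCTLA4 and 1 of 4 in Triplet, where 1 was lower. Without the Lyz2-high members 2 of 5, 2 of 4 and 1 of 4 were higher. Lyz2, on which those members were chosen, is itself among these markers. Of the uptake receptors, 7 of 9 were higher in PD1plusCD40, 8 of 9 in CD40plusCTLA4 and 0 of 4 in Triplet. Without the Lyz2-high members 2 of 5 (with 1 lower), 1 of 4 and 1 of 3 were.

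Cytokines split between the combinations. Ebi3 was at 86.2 CPM in PBS, 23.3 in PD1plusCTLA4, 132 in PD1plusCD40, 123 in CD40plusCTLA4 and 109.6 in Triplet, with ratios over PD1plusCTLA4 of 4.70 (interval 2.81 to 8.04), 5.66 (interval 3.67 to 9.09) and 5.26 (interval 3.42 to 8.43) in Triplet, PD1plusCD40 and CD40plusCTLA4. In Ebi3, PBS lay below the anti-CD40 libraries and its interval overlapped that of Triplet. Il12b was at 94.1 CPM in PBS, 217 in PD1plusCTLA4, 92.9 in PD1plusCD40, 124 in CD40plusCTLA4 and 836 in Triplet. The Triplet value came from 351 UMIs in 12 of 40 barcodes, with 46.2% of them in 1 barcode. After thinning to 2500 UMIs, Il12b was found in 17.5% (7.34 to 32.8) of Triplet mature barcodes, against 11.3% to 16.0% in the other libraries and at most 0.157% of T cell barcodes. Among chemokines, Ccl17 was at 1103 CPM in PBS, 1839 in PD1plusCTLA4, 3499 in PD1plusCD40, 3985 in CD40plusCTLA4 and 1986 in Triplet, and Ccl5 at 9942 to 12968 CPM in the 5 libraries. Median Ccl17 over mature barcodes of at least 2500 UMIs was 684, 1026, 1487, 1993 and 1626 CPM, with single barcodes from 0 to 37897.

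Map3k14, Nr4a3, Dpp4 and Dkk2 were lower in PD1plusCD40 and CD40plusCTLA4 than in Triplet. Map3k14 was at 196 CPM in PBS, 315 in PD1plusCTLA4, 58.1 in PD1plusCD40, 27.3 in CD40plusCTLA4 and 193 in Triplet, with ratios over PD1plusCTLA4 of 0.184 (interval 0.140 to 0.239) in PD1plusCD40, 0.0865 (interval 0.0601 to 0.121) in CD40plusCTLA4 and 0.613 (interval 0.474 to 0.784) in Triplet. Nr4a3 was at 437 CPM in PBS, 391 in PD1plusCTLA4, 103 in PD1plusCD40, 72.4 in CD40plusCTLA4 and 329 in Triplet. Dpp4, a surface peptidase, was at 49.1 CPM in PBS, 143 in PD1plusCTLA4, 25.7 in PD1plusCD40, 26.5 in CD40plusCTLA4 and 162 in Triplet, and Dkk2 at 57.0 CPM in PBS, 144 in PD1plusCTLA4, 9.13 in PD1plusCD40, 7.89 in CD40plusCTLA4 and 88.1 in Triplet. Against PD1plusCTLA4 the Triplet ratio of Map3k14 and of Dkk2 (0.613, interval 0.415 to 0.883) lay below 1, while the intervals of Nr4a3 (0.688 to 1.02) and Dpp4 (0.837 to 1.52) included 1. In these 4 genes the Triplet intervals lay above those of both other anti-CD40 libraries. Stat4, in contrast, was lower than PD1plusCTLA4 in all 3, with ratios of 0.397 (interval 0.349 to 0.452), 0.377 (interval 0.332 to 0.427) and 0.325 (interval 0.261 to 0.401) in the same order, and Il7r with 0.443, 0.317 and 0.422. Of the maturation list, 0 of 15 genes were higher and 4 lower in PD1plusCD40, 1 of 16 and 4 in CD40plusCTLA4, and 0 of 15 and 2 in Triplet. The median log2 fold of the list was -0.56, -0.64 and -0.25, beside -0.03 and 0.00 over all genes in PD1plusCD40 and CD40plusCTLA4.

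NF-kB genes were mostly under the 2-fold limit, with 2 of 21 higher in Triplet and none lower, 1 of 22 higher and 1 lower in PD1plusCD40, and 3 of 22 higher and 3 lower in CD40plusCTLA4. Nfkbia was at 1820.2 CPM in PBS, 510.3 in PD1plusCTLA4, 1092 in PD1plusCD40, 1207 in CD40plusCTLA4 and 662 in Triplet. Its 2 lowest levels were in PD1plusCTLA4 and Triplet. Relb was at 481 CPM in PBS, 396 in PD1plusCTLA4, 246 in PD1plusCD40, 247 in CD40plusCTLA4 and 276 in Triplet, Nfkb2 at 221 CPM in PBS, 122 in PD1plusCTLA4, 127 in PD1plusCD40, 139 in CD40plusCTLA4 and 129 in Triplet and Traf1 at 713 CPM in PBS, 452 in PD1plusCTLA4, 431 in PD1plusCD40, 527 in CD40plusCTLA4 and 443 in Triplet, and each of these 3 was highest in PBS.

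PD1plusCTLA4 and PBS differed in the immediate early genes, which tissue digestion can raise, and in several other groups. Of 13 immediate early genes 10 were lower in PD1plusCTLA4 and none higher, and their summed level was 5154 CPM in PBS and 1234 to 1508 CPM in the 4 treated libraries. Of 11 hypoxia and glycolysis genes 8 were lower and 1 higher, with Ldha, lactate dehydrogenase, at 261 CPM in PBS, 74.8 in PD1plusCTLA4, 211 in PD1plusCD40, 240.3 in CD40plusCTLA4 and 226 in Triplet. Ldha was lowest in PD1plusCTLA4 alone, so the same reference made it higher in each anti-CD40 library. Co-stimulatory genes were lower in 4 of 10 and MHC class II genes in 4 of 12, with none higher. Tnfrsf9 was at 821 CPM in PBS, 140.0 in PD1plusCTLA4, 188 in PD1plusCD40, 136 in CD40plusCTLA4 and 83.4 in Triplet, a ratio of 0.171 (interval 0.141 to 0.205) for PD1plusCTLA4 over PBS. Cxcl9, an interferon-induced attractant of T cells, went the other way with a ratio of 3.73 (interval 1.99 to 7.61), as did Dpp4 with 2.91 (interval 2.02 to 4.30). The PBS matrix was made with another version of Cell Ranger than the other 4, so this difference and that of treatment cannot be told apart.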

How the data were processed

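Single-cell RNA was measured in 5 libraries, 1 per group, each from pooled tumours of 3 mice. The authors deposited raw UMI counts per gene and barcode; per the submitters' processing notes they were made with Cell Ranger on mm9, and per the file headers with version 4 for PBS and 7.1.0 for the other libraries. The PBS and CD40plusCTLA4 tables list all barcodes and the others those of at least 500 UMIs, so free RNA could be read in those 2 only. Members and gene lists were chosen with earlier results of these data known.

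UMIs were summed per library and cell kind in Python 3.11.15 (NumPy 2.4.6, SciPy 1.17.1). Cell kinds were compared with edgeR 4.0.16 in R 4.3.3 (TMM, filterByExpr, library as block, since both kinds come from the same mice). No doublet caller was run; the rule limits macrophage, T cell and tumour UMIs, and an alternative left out the tenth of members with most UMIs. Libraries were compared by CPM with exact Poisson intervals and exact conditional ratio intervals. On simulated counts edgeR called 95.8% of 4-fold and 51% of 2-fold changes against cDC1-rule barcodes (5679 genes), and 99% and 77% against Cd209a-rule barcodes (8526 genes). The simulation gave every gene the same fixed spread between libraries and changed only genes above a minimum mean count. Its rates hold for that setting and do not give the power of the real fits.

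Named genes were the 8 highest and 8 lowest genes of both cell-kind comparisons, the 4 highest and 4 lowest per library comparison, the most changed members of each list and the antibody targets. Other list members and genes of the anti-CD40 gap in the text were chosen after their values were seen. Alternatives changed the normalization, tool, filters, block, member rule, depth and weighting. Promoter sequences are from RefSeq GRCm38.p6 and were matched by symbol; no coordinate of the count tables was used. Near-identical and overlapping genes are uncertain. One gene of the migration list is not reported here.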

Additional observations from a re-analysis of the deposited data

How the results depend on the processing

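Against cDC1-rule barcodes DESeq2 called 928 genes and the fit with no replicate block 665, of 2128 with edgeR and the block; leaving out a library leaves 1 and was not run. Against Cd209a-rule barcodes the fit with no replicate block called 2126 of 3427, and leaving out 1 library gave 2435 to 3567. The block pairs cell kinds of the same mice. The cause was not tested for the calls lost in DESeq2 or without the block.

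The anti-CD40 gap held 235 genes in both directions: 2588 with any gap, 89 at 3-fold, 156 without the Lyz2-high members, and 256 to 1387 without 1 library, where fewer libraries leave fewer conditions to meet. It was 529 without PBS, 1387 without PD1plusCTLA4 and 449 without Triplet.

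Thinning to 2500 UMIs moved the mature share to 43.8% in PBS, 52.1% in PD1plusCTLA4, 100% in PD1plusCD40, 97.5% in CD40plusCTLA4 and 28.2% in Triplet. In PD1plusCTLA4 the Cd209a-rule barcodes fell from 202 to 83, the cDC1-rule barcodes from 34 to 20 and the mature ones from 136 to 112. Barcodes under 2500 UMIs were left out as well, and the parts of these changes were not tested.

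Without the Lyz2-high members the log2 fold over PD1plusCTLA4 turned in Ccr2 (-0.068 in PD1plusCD40 and -0.51 in CD40plusCTLA4) and, in CD40plusCTLA4, in Clec4n (-0.18), Fcgr3 (-0.24) and Epcam (-0.49). With equal weight per barcode it turned in Plac8 (0.55 in CD40plusCTLA4) and Fabp5 (-0.063 for PD1plusCTLA4 over PBS). Depth limits Triplet most, with 40 mature barcodes and 419854 UMIs. Lyz2 limits and the variants without those members were chosen after seeing the data.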

Other observations

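Fancd2, a DNA repair gene, was at 2.65 CPM in PBS, 0.972 in PD1plusCTLA4, 29.9 in PD1plusCD40, 59.5 in CD40plusCTLA4 and 88.1 in Triplet. It was one of the genes farthest above PD1plusCTLA4 in Triplet (37 UMIs in 7 barcodes, 17 of them in 1 barcode, against 1 UMI). Rerg, a small GTPase, was at 107 CPM in PBS, 223 in PD1plusCTLA4, 12.4 in PD1plusCD40, 11.5 in CD40plusCTLA4 and 76.2 in Triplet. Sod3 was at 341 CPM in PBS, 36.0 in PD1plusCTLA4, 0.830 in PD1plusCD40, 3.59 in CD40plusCTLA4 and 9.53 in Triplet. Of these genes Fancd2 was higher in all 3 anti-CD40 libraries, Sod3 was highest in PBS by a wide margin, and Rerg was lowest in PD1plusCD40 and CD40plusCTLA4, with Triplet also below PBS and PD1plusCTLA4. Ctsk, a protease of osteoclasts and macrophages, had no UMI in PBS or PD1plusCTLA4 mature barcodes and reached 926 CPM in the shallow ones of CD40plusCTLA4, where free RNA held it at 506 CPM; the part of free RNA was not tested.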
